A study of Mus musculus with 2 samples.

Results

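The G2 and mitosis genes described here are 55 mouse genes whose products drive cells from the end of DNA replication through chromosome segregation and cell division. They were chosen by function, as rows of the deposited count table whose Ensembl identifier maps to a listed symbol, and all 55 were found among the 45318 genes of the table. Earlier results of these data were known when the genes were chosen. Each of the 55 passed the filter on low values, a mean over both libraries of 1 CPM or more (CPM, gene counts scaled to 1000000 per library).

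The samples were bone marrow leukaemia blasts of C57Bl/6 mice, driven by the fusion oncogene MLL/AF9, with GFP marking the leukaemia cells. GFP-positive cells were sorted from leukaemic mice that had been given vehicle or brequinar, which blocks the enzyme DHODH and with it the making of new pyrimidines. Each treatment is represented by 1 RNA library, so there are 2 libraries in all and no test between treatments. The labels state no dose, duration, age or number of animals per library. A sort for GFP does not separate leukaemia cells by stage of maturation.

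Mitosis begins when cyclin B and Cdk1 form an active kinase, which the Aurora and Polo-like kinases amplify. Condensin compacts the chromosomes, kinetochores tie them to spindle microtubules, kinesins move them, and a checkpoint withholds anaphase until every kinetochore is attached. The anaphase-promoting complex then marks cyclin B and securin for destruction. Transcripts of these genes accumulate late in the cell cycle, so their level in a cell mixture moves with the share of cells in G2 and mitosis as well as with transcription in each cell. In bulk RNA, fewer cells of a kind and less RNA per cell cannot be told apart.

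Promoters of this family often carry a short element called the cell cycle genes homology region (CHR), here searched as TTTGAA, together with CCAAT boxes. MuvB complexes bind the CHR, in activating form with B-Myb and Foxm1 and in repressing form with E2F4 and the pocket proteins p107 and p130. RefSeq promoter windows (GRCm38.p6), from 250 bases before to 50 after the annotated start, were matched for 46 of the 55 genes. Shown first are the genes that had the largest brequinar-to-vehicle ratios among members with a CHR or CCAAT motif. The 120 bases before the start are printed 5′ to 3′ on the gene's strand, with CHR and CCAAT motifs of either strand in capitals.
Spc25, chr2:69206214-69206333, minus strand: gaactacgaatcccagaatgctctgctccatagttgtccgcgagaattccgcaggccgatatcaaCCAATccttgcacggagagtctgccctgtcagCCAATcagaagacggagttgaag
Aurka, chr2:172370571-172370690, minus strand: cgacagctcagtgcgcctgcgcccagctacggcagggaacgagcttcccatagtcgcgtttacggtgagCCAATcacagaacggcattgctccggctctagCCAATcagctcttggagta
Kif18b, chr11:102925125-102925244, minus strand: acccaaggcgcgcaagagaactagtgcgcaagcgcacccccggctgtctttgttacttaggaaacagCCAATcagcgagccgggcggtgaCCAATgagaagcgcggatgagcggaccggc
Plk1, chr7:122159315-122159434, plus strand: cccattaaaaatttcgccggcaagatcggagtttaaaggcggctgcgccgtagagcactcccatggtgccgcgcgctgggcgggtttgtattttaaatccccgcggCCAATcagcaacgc
Kif2c, chr4:117178773-117178892, minus strand: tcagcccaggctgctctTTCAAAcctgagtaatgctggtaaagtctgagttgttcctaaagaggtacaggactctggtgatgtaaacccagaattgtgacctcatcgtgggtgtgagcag
The Kif2c window belongs to a start 3867 bases inside the gene as GENCODE draws it (the gene begins at 117182639), so this stretch does not lie before the outermost start. The starts used for the windows of Cdca8 and Cdca3 also lie over 500 bases inside the gene.

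In the first 4 of these genes, and in Ndc80, whose 120 upstream bases held no motif, the CHR lay just after the annotated start. These short stretches show it in capitals.
Ndc80, chr17:71526815-71526836, minus strand: ctttaaaaTTCAAAccgccttg
Spc25, chr2:69206176-69206197, minus strand: gtggagagTTTGAAattgaaag
Aurka, chr2:172370525-172370546, minus strand: ggagaaccTTTGAAttgtaacg
Kif18b, chr11:102925108-102925124, minus strand: tagTTTGAAcgcgccgc
Plk1, chr7:122159457-122159478, plus strand: gcgccgcgTTTGAAttcgggga

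Cdk1, Ube2c and Cdc20 were added after the hits were seen, because their CHR and CCAAT motifs both lie before the start. In the printed bases of Cdk1 and Ube2c the CCAAT boxes read ATTGG, the same motif on the other strand.
Cdk1, chr10:69352913-69353032, minus strand: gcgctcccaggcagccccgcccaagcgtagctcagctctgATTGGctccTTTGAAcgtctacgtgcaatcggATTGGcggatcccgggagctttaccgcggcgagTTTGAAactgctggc
Ube2c, chr2:164769809-164769928, plus strand: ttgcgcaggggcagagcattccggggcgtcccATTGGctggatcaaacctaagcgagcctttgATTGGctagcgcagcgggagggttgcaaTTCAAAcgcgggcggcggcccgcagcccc
Cdc20, chr4:118437344-118437463, minus strand: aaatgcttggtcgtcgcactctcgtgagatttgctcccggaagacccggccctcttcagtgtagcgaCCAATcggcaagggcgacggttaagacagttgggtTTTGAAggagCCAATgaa

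Of the 46 matched members, 34 (73.9%) held a CHR in a promoter window, against 14.6% of the 8690 matched genes past the same filter and 20.2% of all 27025 genes in the promoter table. For 7 of the 46 (Aurka, Kif11, Kif23, Kif2c, Mad2l1, Plk4 and Smc2) bases 21 to 50 after the RefSeq start were not found unbroken in a GENCODE transcript, and without them, a check chosen after seeing the data, 29 of 39 (74.4%) held a CHR. In 31 of the 34 a CHR lay within 50 bases of the annotated start on either side. A CCAAT motif was found for 35 members (76.1%), against 43.9% of the expressed genes, and 30 members (65.2%) held both motifs, against 6.14%. The motif TTTCCCGC or TTTGGCGC, which E2F factors of the G1/S transition recognise, was found only in Ncapg and Ncapd2 among the members (4.35%), against 3.73% of the expressed genes. Of 35 matched genes of G1/S and replication, 11 (31.4%) held this E2F motif, and 6 (17.1%) held a CHR. The motifs were searched on both strands, CCAAT also as ATTGG and TTTGAA also as TTCAAA, and neighbouring matches may share end bases. A match describes letters in a window and shows no binding. Median log2 ratios of brequinar over vehicle were 0.59 for the 34 members with a CHR and 0.47 for the 12 without one. Their ranges overlapped widely, from -0.066 to 0.98 with a CHR and from -0.15 to 0.78 without. Whether the ratio differs with the motif was not tested.

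**Figure D1:**
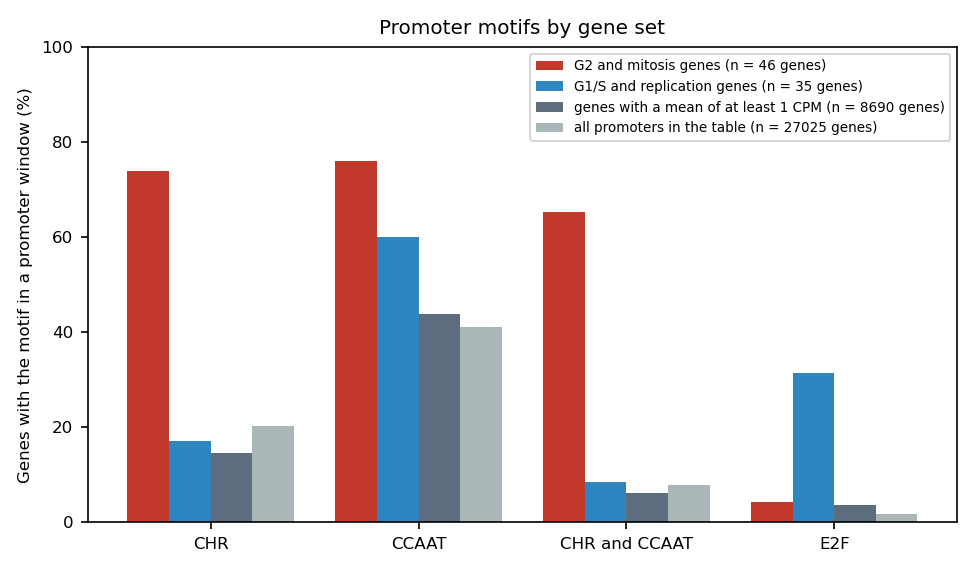
Share of genes (%, y axis from 0) with each motif in a RefSeq promoter window, for 46 G2 and mitosis genes, 35 G1/S and replication genes, 8690 expressed genes and all 27025 genes of the promoter table. The CHR bar stands at 73.9% for G2 and mitosis genes and at 14.6% for expressed genes.

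The comparison asks how the mitotic genes stood in blasts after brequinar, beside blasts after vehicle. Nearly every G2 and mitosis gene was higher in the brequinar library, by a modest factor. Of 55 genes, 53 had a log2 ratio above 0 (96.4%), where 50.1% of the 11504 genes tested did, and 24 were at least 1.5-fold higher (43.6%), against a background of 12.7%. None was 1.5-fold lower, where 12.7% of all tested genes were. None reached 2-fold in either direction, where 6.45% of all tested genes were 2-fold higher and 4.4% were 2-fold lower. The median log2 ratio was 0.53, beside 0.00029 over all genes tested.

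With 1 library per treatment these ratios carry counting error only, given as exact 95% intervals, and no spread between mice or sorts. Of the members, 52 had an interval wholly above 1 (94.5%, background 39.2%) and 2 wholly below it (background 37.7%). These shares are not fully alike, since intervals narrow as counts rise. The median vehicle level was 86.6 CPM for members and 30.1 CPM for all genes tested. The 1.5-fold line falls in the middle of the group. Kif23 (1.505-fold), Cenpf and Cdc20 (both 1.51-fold) lay just inside it, and Cenpa (1.45-fold) and Bub3 (1.45-fold) just outside. With scaling by total counts the count at 1.5-fold was 15, since that scaling shifted the log2 ratios by -0.092, and the median of the 55 genes was then 0.44.

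Summed over the 55 genes, 330256 of the 47935476 gene counts of the vehicle library were theirs, a share of 0.689% (exact binomial 95% interval 0.687% to 0.691%). In the brequinar library they held 439404 of 47950714, a share of 0.916% (interval 0.914% to 0.919%). The share of 44 genes of G1/S and replication went from 0.731% (0.728% to 0.733%) to 0.709% (0.707% to 0.711%). The direction of this difference turned with the scaling, since the same genes summed to 7078 and 7318 CPM after scaling by TMM, the method used for all CPM here. PCR copies of a molecule could not be recognised, so these intervals cover counting error only and can be too narrow.

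**Figure D2:**
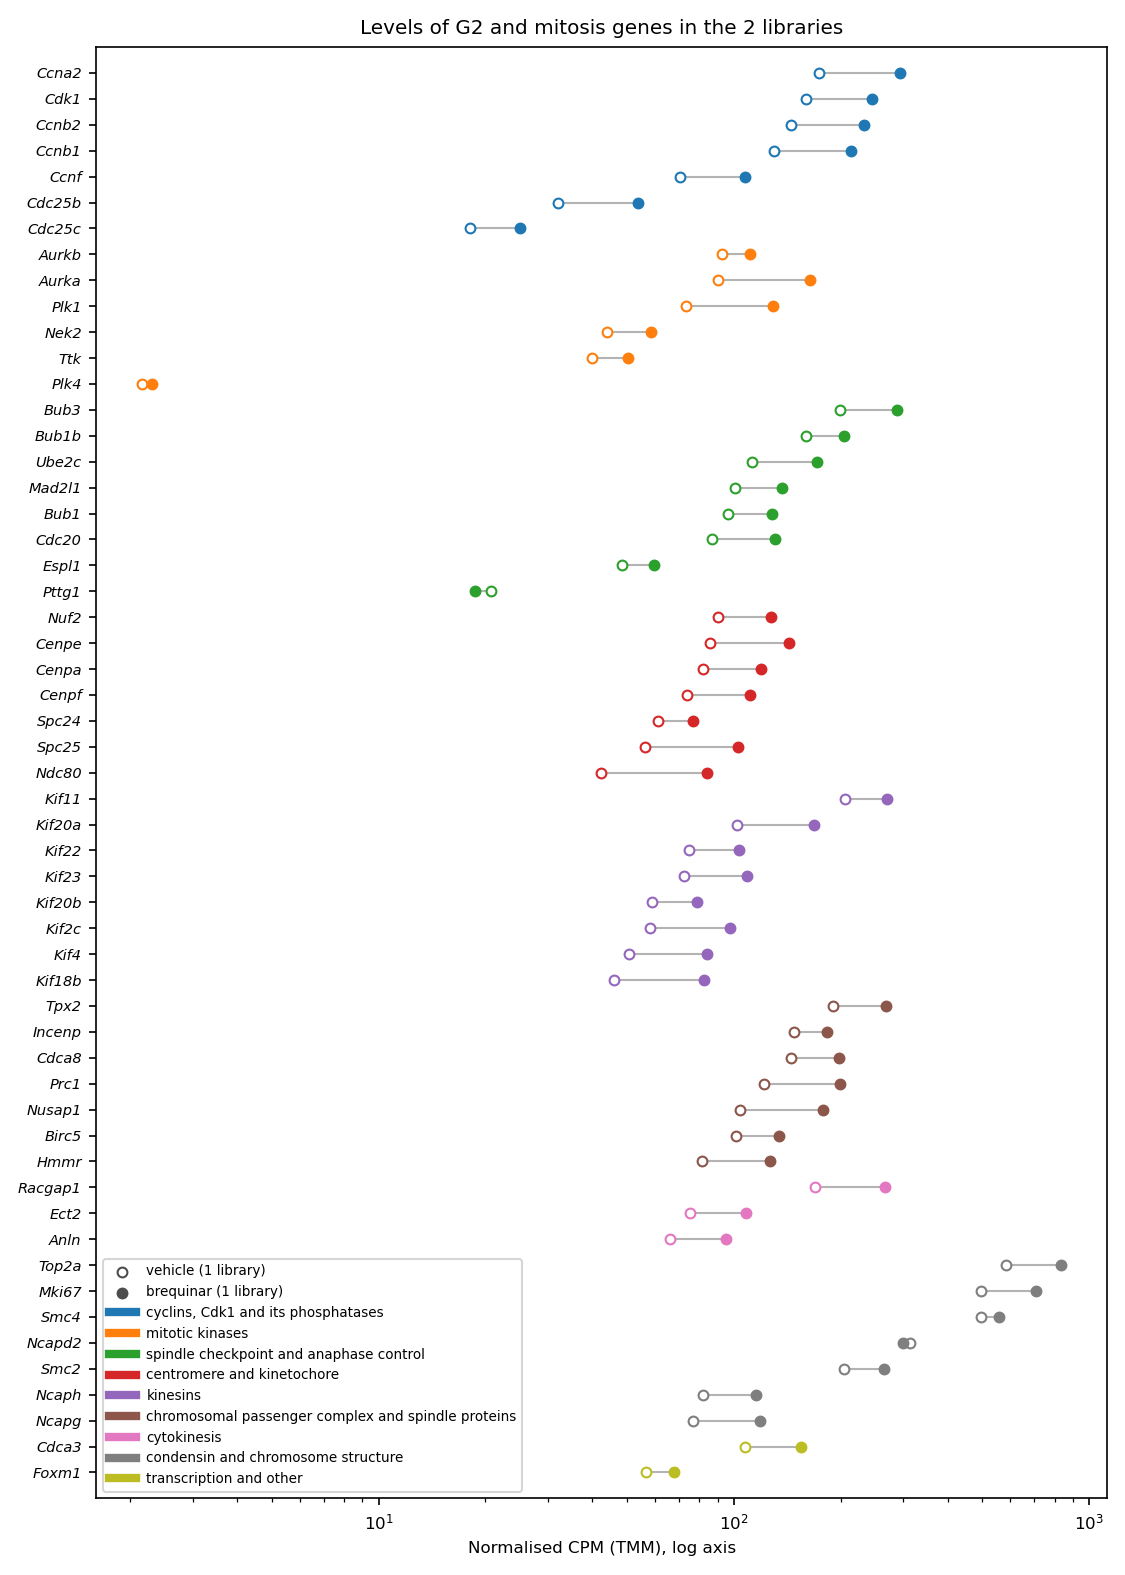
Normalised CPM (log x axis) of each of the 55 genes in the vehicle library (open points) and the brequinar library (filled points), 1 library each, coloured by role. The filled point lies to the right for 53 genes and to the left for Pttg1 (20.7 and 18.7 CPM) and Ncapd2 (313 and 299 CPM).

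Paired values in the following paragraphs are normalised CPM in the vehicle and then the brequinar library, and ratios are brequinar over vehicle with their counting interval. Among cyclins, Cdk1 and its phosphatases, 6 of 7 genes were at least 1.5-fold higher, with a median log2 ratio of 0.68. Ccna2, the cyclin of S phase and G2, stood at 174 and 294 CPM and was 1.69-fold higher (1.65 to 1.74). Ccnb1, the cyclin that activates Cdk1 at mitotic entry, stood at 129.5 and 214 CPM, a 1.65-fold difference (1.597 to 1.70). Ccnb2, the other B-type cyclin that pairs with Cdk1, stood at 145 and 232 CPM. These A and B cyclins differed by nearly the same factor, with log2 ratios from 0.68 to 0.76. Cdk1, the kinase itself, stood at 159.7 and 244 CPM (1.53-fold, 1.49 to 1.57). Ccnf, an F-box protein that directs ubiquitin ligase activity in G2, stood at 70.8 and 108 CPM. The phosphatases that remove inhibitory phosphate from Cdk1 were less abundant. Cdc25b stood at 32.1 and 53.6 CPM (1.67-fold, 1.57 to 1.78), and Cdc25c at 18.1 and 25.0 CPM (1.38-fold, 1.26 to 1.51).

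Among 6 mitotic kinases, a pair with high ratios stood apart from the rest, and 2 were at least 1.5-fold higher. Aurka, the Aurora kinase of centrosomes and spindle poles, stood at 90.1 and 164 CPM and was 1.82-fold higher (1.75 to 1.89). Plk1, which acts from mitotic entry to cytokinesis, stood at 73.5 and 129 CPM (1.76-fold, 1.69 to 1.83). Aurkb, the Aurora kinase of the centromere and midzone, was close to Aurka in the vehicle library, at 92.7 CPM, and stood at 111 CPM with brequinar (1.20-fold, 1.15 to 1.247). The intervals of the Aurora kinases are thus far apart. Nek2, a kinase of centrosome separation, stood at 43.8 and 58.6 CPM (1.34-fold, 1.26 to 1.42). Ttk, which starts the spindle checkpoint, stood at 39.8 and 50.2 CPM (1.26-fold, 1.19 to 1.34). Plk4, the kinase that licenses centriole duplication, was the least abundant member, with 107 counts in each library (2.16 and 2.30 CPM). Its interval (0.81 to 1.41) spans 1, and its log2 ratio of 0.09 turned to -0.00045 with total-count scaling and to -0.034 after a correction for length and GC content.

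All 8 mitotic kinesins had intervals above 1, with 5 of 8 at least 1.5-fold higher and a median log2 ratio of 0.66. Kif18b and Kif2c, which shorten microtubule ends, had vehicle levels of 46.1 and 58.2 CPM. With brequinar Kif18b reached 82.7 CPM (1.79-fold, 1.70 to 1.89) and Kif2c 97.7 CPM (1.68-fold). Kif20a, a motor of the central spindle, stood at 102 and 169 CPM (1.66-fold, 1.597 to 1.72). Kif4, a chromosome-bound motor that also sets midzone length, stood at 50.8 and 84.0 CPM (1.65-fold, 1.57 to 1.74). Kif23, the motor of centralspindlin, stood at 72.6 and 109 CPM. These 5 had higher ratios than the remaining kinesins among the 8. Kif22, which pushes chromosome arms from the poles, stood at 74.8 and 103 CPM (1.38-fold, 1.33 to 1.44). Kif20b, which acts in late cytokinesis, stood at 58.8 and 78.7 CPM (1.34-fold, 1.28 to 1.41). Kif11, the bipolar motor that separates the poles, was the most abundant kinesin by CPM, at 206 and 270.1, and had the lowest ratio of this group (1.31-fold, 1.28 to 1.35).

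Centromere and kinetochore genes held both the highest single ratio and a wide spread within 1 complex. Ndc80, the microtubule-binding subunit of the outer kinetochore (GENCODE, GRCm38 chromosome 17, 71496100 to 71526857, minus strand), stood at 42.4 and 83.9 CPM. Its ratio of 1.98 (1.88 to 2.09) was the largest of all 55 genes. Part of its transcript, 303 bases, has a near-identical copy in 2700099C18Rik (5.56 and 7.36 CPM), so its reads are in part uncertain. Spc25 stood at 56.2 and 103 CPM (1.83-fold, 1.74 to 1.91), Nuf2 at 90.03 and 127 CPM (1.41-fold, 1.36 to 1.47), and Spc24 at 61.1 and 76.7 CPM (1.26-fold, 1.20 to 1.32). These 4 proteins form a single complex, Ndc80 paired with Nuf2 and Spc24 with Spc25, yet the intervals of both partners in each pair do not overlap. Per length of the principal transcript, Ndc80 was the lowest of the 4 in the vehicle library, at 36.7 TPM (a count per transcript length, scaled to the same sum in each library), beside 71.4 for Nuf2, 85.2 for Spc24 and 89.7 for Spc25. In the brequinar library the values were 66.4, 92.2, 97.8 and 149.8 TPM. Ndc80 was also lowest when lengths were taken as the union of all exons.

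Cenpe, the kinesin-like motor that brings chromosomes to the equator, stood at 85.6 and 143 CPM (1.67-fold, 1.61 to 1.74). Cenpf, a large protein of the fibrous corona, stood at 73.9 and 111 CPM. Cenpa, the histone H3 variant that defines the centromere, stood at 81.8 and 119 CPM. All 7 genes of this group had intervals above 1.

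Spindle checkpoint and anaphase control genes held the lowest single ratio, with 2 of 8 at least 1.5-fold higher and a median log2 ratio of 0.43. The checkpoint genes Bub1b, Bub1, Mad2l1 and Bub3 lay between 1.28-fold and 1.45-fold, and the checkpoint kinase Ttk, described above, at 1.26-fold. Bub3 stood at 199 and 288 CPM, Mad2l1 at 101 and 137 CPM, the kinase Bub1 at 96.4 and 128 CPM, and Bub1b, which encodes BubR1, at 159.7 and 204 CPM. Their target was a little higher in ratio. Cdc20, which activates the anaphase-promoting complex, stood at 86.6 and 131 CPM (1.51-fold, 1.45 to 1.57), and Ube2c, the ubiquitin-conjugating enzyme of that complex, at 113 and 172 CPM (1.53-fold, 1.47 to 1.58). Espl1, which encodes separase, the protease that cleaves cohesin, stood at 48.4 and 59.8 CPM (1.24-fold, 1.17 to 1.31). Pttg1, which encodes securin, the inhibitor of separase, went the other way, at 20.7 and 18.7 CPM (1026 and 869 counts). Its ratio of 0.90 (0.82 to 0.99) was the lowest of the 55 genes, and its log2 ratio of -0.15 ran from -0.24 to -0.06 under the 9 other settings of scaling, filter, prior count and length correction. Pttg1 lies on GRCm38 chromosome 11 (43420250 to 43426251, minus strand), and its matched promoter window held none of the 3 motifs. The start used for that window lies 270 bases inside the gene as GENCODE draws it. The window lies wholly inside the gene, so no base before the outermost start was searched. The windows of Birc5, Mad2l1, Ncaph, Nuf2, Nusap1 and Plk4 held none of the 3 motifs either.

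Genes of the chromosomal passenger complex, which corrects faulty attachments, were close together at a low ratio. Besides Aurkb these are Incenp, its scaffold (148 and 184 CPM, 1.24-fold), Birc5, which encodes survivin (102 and 134 CPM, 1.32-fold), and Cdca8, which encodes borealin (145 and 198 CPM, 1.36-fold). None of these 4 genes reached 1.5-fold, and their log2 ratios ran from 0.26 to 0.45. Other spindle proteins ran higher. Nusap1, which bundles microtubules near chromosomes, stood at 104 and 179 CPM (1.71-fold, 1.65 to 1.77). Prc1, the crosslinker of the midzone, stood at 122 and 199 CPM (1.64-fold, 1.59 to 1.69), and Hmmr, a spindle-pole protein, at 81.6 and 126 CPM (1.55-fold, 1.49 to 1.61). Tpx2, which activates Aurka on the spindle, stood at 190.4 and 268 CPM (1.41-fold, 1.37 to 1.45), a smaller ratio than that of its kinase.

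All 3 cytokinesis genes had intervals above 1. Racgap1, the GTPase-activating partner of Kif23 in centralspindlin, stood at 169.5 and 267 CPM (1.58-fold, 1.53 to 1.62). Ect2, the exchange factor that activates RhoA at the cleavage furrow, stood at 75.3 and 108 CPM (1.44-fold, 1.38 to 1.504). Anln, the scaffold anillin, stood at 65.9 and 95.2 CPM (1.44-fold, 1.38 to 1.51).

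**Figure D3:**
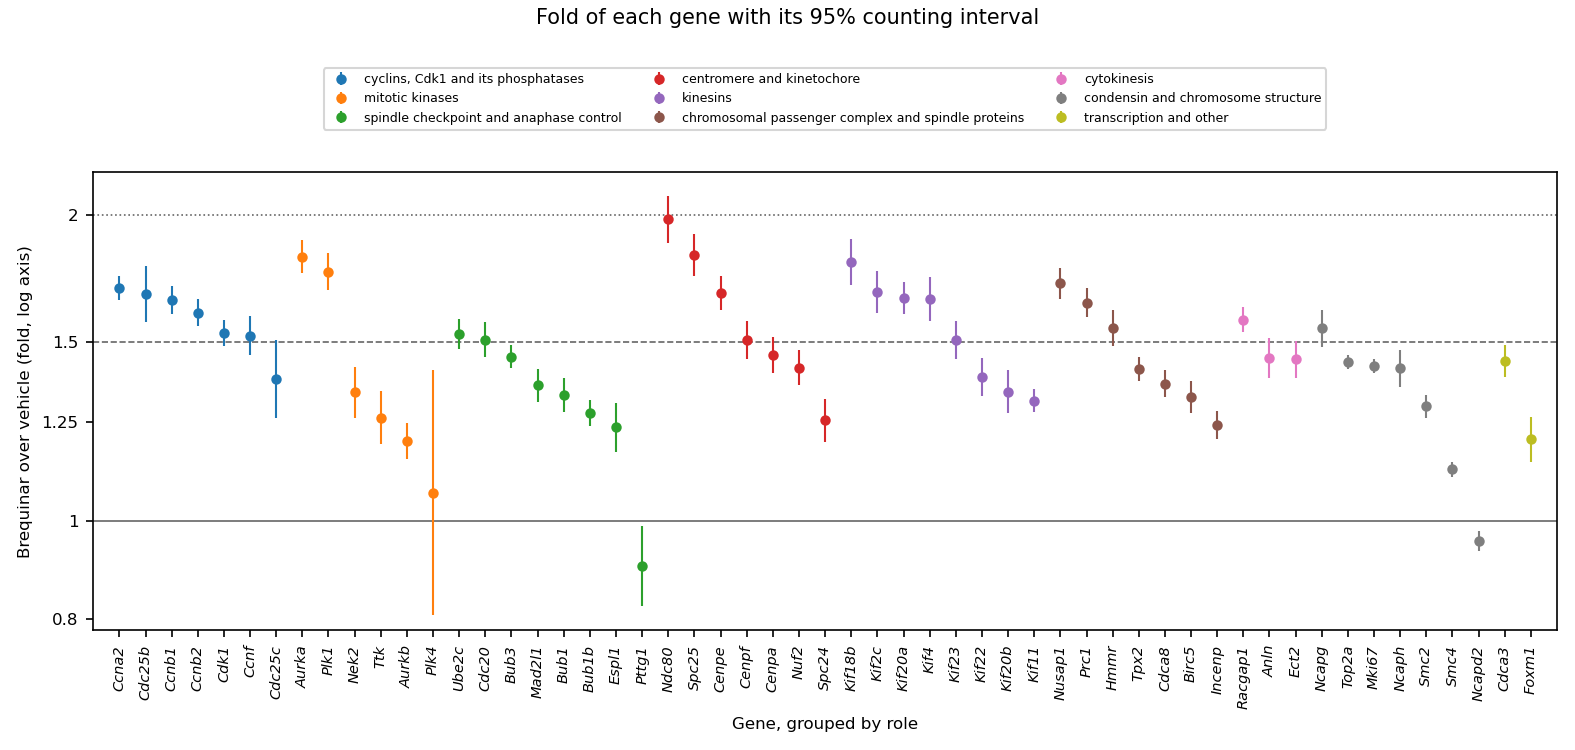
Fold of brequinar over vehicle (log y axis) for each of the 55 genes, ordered within 9 roles, with exact 95% intervals that cover counting error only. Dashed and dotted lines mark 1.5-fold and 2-fold. Ndc80 is highest at 1.98 and Pttg1 lowest at 0.90.

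Condensin subunits were unequal. Condensin I has the ATPase pair Smc2 and Smc4, shared with condensin II, and the subunits Ncapd2, Ncapg and Ncaph. Ncapg stood at 76.7 and 119 CPM (1.55-fold, 1.48 to 1.61), Ncaph at 81.8 and 115 CPM (1.41-fold, 1.35 to 1.47), and Smc2 at 204 and 265 CPM (1.30-fold, 1.26 to 1.33). Smc4 stood at 497 and 558 CPM (1.12-fold, 1.10 to 1.14). Ncapd2 stood at 313 and 299 CPM, a ratio of 0.96 (0.93 to 0.98), and was the other member besides Pttg1 below 1. The least abundant subunit had the highest ratio, and the 2 most abundant had the lowest. In the vehicle library Smc4 held 219 TPM, Ncapd2 129, Smc2 72.1, Ncaph 57.9 and Ncapg 39.5. In the brequinar library these were 225, 112, 85.4, 74.7 and 55.8 TPM, so the span from lowest to highest was narrower. With lengths taken as the union of exons, Smc2 and Ncapd2 changed places in the brequinar library (124.5 and 123 TPM). The exons of Ncapd2 overlap those of Scarna10 and Gm28967, so its reads are in part uncertain. The genes particular to condensin II, Ncapd3, Ncaph2 and Ncapg2, had log2 ratios from 0.08 to 0.26 with a median of 0.17, beside a median of 0.37 over the 5 condensin I genes.

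Top2a, the topoisomerase that untangles sister chromatids, was the most abundant member by CPM, at 582 and 834 (1.43-fold, 1.41 to 1.45). Mki67, which coats mitotic chromosomes and is the common marker of proliferation, stood at 498 and 707 CPM (1.42-fold, 1.40 to 1.44). Cdca3, an adaptor for ubiquitin ligases at mitotic entry, stood at 107 and 154 CPM (1.43-fold, 1.38 to 1.49). Foxm1, the transcription factor that drives many of these promoters, stood at 56.4 and 67.9 CPM. Its ratio of 1.20 (1.14 to 1.27) was lower than that of most genes in the group. Mybl2, which encodes B-Myb, stood at 70.1 and 81.3 CPM, a log2 ratio of 0.21.

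Genes of the same processes outside the 55 were also described, from lists chosen by function with earlier results of these data known. Among 115 further mitosis genes, 88 had log2 ratios above 0, 15 were at least 1.5-fold higher, 1 was 1.5-fold lower, and the median was 0.25. The 15 genes are 13% of the list, about the 12.7% of all tested genes, whereas 76.5% lay above 0 against 50.1%, and 0.87% were 1.5-fold lower against 12.7%. Further spindle, midbody and mitotic kinesin genes had a median of 0.38, with 9 of 32 at least 1.5-fold higher (28.1%) and none lower. Of these, 4 passed 2-fold, all upwards. Gtse1, a G2 and S phase protein that binds p53 and microtubules, stood at 38.1 and 91.9 CPM (2.41-fold, 2.29 to 2.55). Fam83d, a spindle protein, stood at 6.26 and 15.1 CPM, and Psrc1, a microtubule-associated protein, at 10.2 and 22.5 CPM. The last of the 4, Depdc1a, stood at 18.5 and 37.1 CPM.

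Further centromere and kinetochore genes had a median log2 ratio of 0.22, with 1 of 29 at least 1.5-fold higher and 1 lower (3.45% each, against 12.7% of all tested genes each way). Ska1, a microtubule-binding protein of the outer kinetochore, stood at 24.9 and 38.0 CPM. Sgo1, which protects centromeric cohesin, stood at 30.9 and 45.1 CPM. Cenpm, of the constitutive centromere network, was lower, at 24.9 and 14.3 CPM (1.74-fold). All 7 further checkpoint genes had ratios above 1, where 50.1% of all tested genes did. Zw10, of the complex that brings dynein to kinetochores, was 1.65-fold higher (39.7 and 65.4 CPM), Spdl1 stood at 24.8 and 32.7 CPM, and Mad2l1bp, which turns the checkpoint off, at 11.2 and 14.4 CPM.

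The anaphase-promoting complex differed in its parts. Of its 14 core subunits 9 had ratios below 1 and 5 above (35.7%, against 50.1% of all tested genes). Their log2 ratios ran from -0.33 to 0.25 with a median of -0.15. None passed 1.5-fold, where 12.7% of all tested genes did in each direction. Anapc13 stood at 54.0 and 42.8 CPM. Its enzyme Ube2s (54.8 and 73.9 CPM) and its inhibitor Fbxo5 (36.5 and 47.3 CPM) were above 1, as were the members Cdc20 and Ube2c. Under total-count scaling all log2 ratios lie 0.092 lower, which does not change which of these parts has the higher values. Cohesin and condensin II had a median of 0.15, and none of 13 passed 1.5-fold (12.7% of all tested genes each way). Stag1 (91.6 and 136.7 CPM), Rad21 (326 and 461 CPM) and Stag2 (279.5 and 371 CPM), all cohesin subunits, had the largest ratios.

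Among 17 further regulators of Cdk1 and mitotic entry the median log2 ratio was 0.29, with 4 at least 1.5-fold higher (23.5%, against 12.7% of all tested genes) and none lower (12.7% of all). Plk2, a Polo-like kinase that p53 induces, went from 0.707 to 6.63 CPM. Melk and Pbk, kinases of dividing cells, had vehicle levels of 31.5 and 62.5 CPM and brequinar levels of 63.1 and 109.4 CPM. Wee1, the kinase that holds Cdk1 inactive, stood at 33.1 and 34.4 CPM, and Pkmyt1, which does the same at the membrane, at 37.8 and 28.3 CPM. Of 12 measured kinesins of transport outside mitosis, 2 were at least 1.5-fold higher (16.7%) and 1 lower (8.33%). Both shares lie near or under the 12.7% of all tested genes each way. Kif3b (27.9 and 46.9 CPM) and Kif21b (53.1 and 86.3 CPM) were the higher genes. Kif17 was 2.48-fold lower (19.8 and 7.99 CPM). The median of these 12 kinesins, 0.22, lay below the 0.66 of the 8 mitotic kinesins.

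Genes of G1/S and replication, the neighbouring phase, had a median log2 ratio of 0.09, with 4 of 44 at least 1.5-fold higher (9.09%, below the 12.7% of all tested genes) and none lower (12.7% of all). The median was -0.0023 with total-count scaling. The largest ratios belonged to the E cyclins Ccne2 (53.4 and 103 CPM) and Ccne1 (14.1 and 24.2 CPM) and to Rrm2, a subunit of ribonucleotide reductase (173 and 296.7 CPM). The difference between both lists was not tested, since each treatment has 1 library. Among 19 MuvB, B-Myb, E2F and pocket protein genes the median was 0.23, with 3 at least 1.5-fold higher (15.8%) and 1 lower (5.26%), near or under the 12.7% of all tested genes. E2f2 was 2.77-fold higher (42.2 and 117 CPM), Rbl2, which encodes p130, was 1.69-fold higher (72.6 and 123 CPM), and E2f5 was 1.64-fold lower at a low level (1.41 and 0.861 CPM).

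Cell cycle arrest genes were higher in the same library as the mitosis genes. Of 14 measured, 10 were at least 1.5-fold higher (71.4%, against 12.7% of all tested genes), 7 at least 2-fold, and none was 1.5-fold lower, with a median log2 ratio of 1.11. Cdkn1a, which encodes the Cdk inhibitor p21, stood at 25.5 and 329.6 CPM. Zmat3 (4.61 and 18.3 CPM) and Ccng1 (121 and 408 CPM), both p53 targets, followed.

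**Figure D4:**
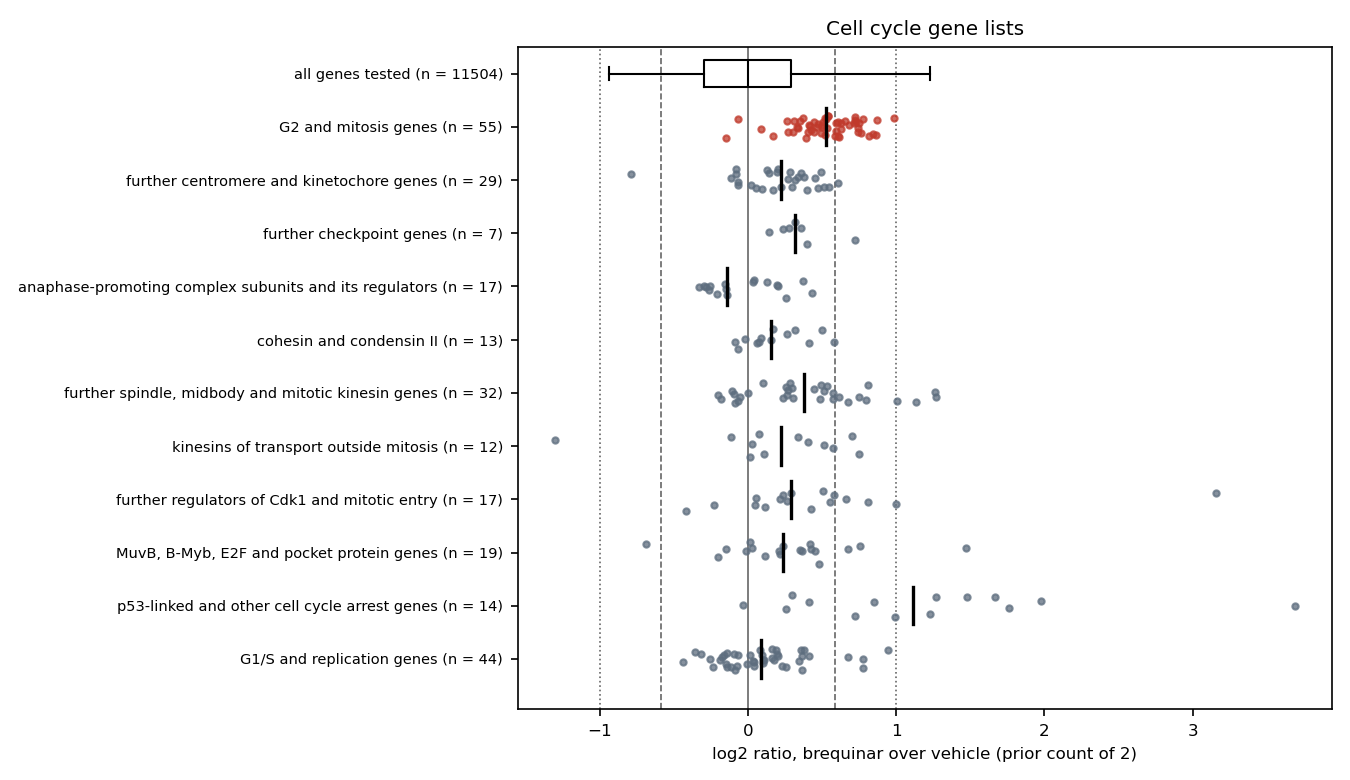
Log2 ratio of brequinar over vehicle (x axis) for each gene of the G2 and mitosis group (red) and of 10 other cell cycle lists (grey), with black bars at medians. The box for all 11504 genes tested spans the quartiles, with whiskers at the percentiles 5 and 95. The red points centre on 0.53 and the G1/S points on 0.09.

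Markers of cell type and of maturation differed between the libraries as well. All 13 tested erythroid markers of 14 were at least 2-fold higher with brequinar, where 6.45% of all tested genes were. The summed level over the 14 genes went from 81.5 to 283 CPM, and globin genes made most of it, while the erythroid factors were low, Klf1 at 0.606 and 1.55 CPM and Gata1 at 0.465 and 2.09 CPM. None of the 14 was at 0 in either library. All 12 maturing neutrophil markers were at least 1.5-fold higher (12.7% of all tested genes were), their sum going from 1564 to 24010.2 CPM. Of 10 resident macrophage markers 8 were at least 2-fold higher (6.45% of all tested genes were), each at 10.01 CPM or less in both libraries. The summed level over the 10 was 597 and 779 CPM. Most of it came from Vcam1 (370 and 496 CPM) and Adgre1 (221 and 225 CPM), neither of which reached 2-fold. Of 9 leukaemia and progenitor genes 2 had log2 ratios above 0, where 50.1% of all tested genes did. In this list 4 were at least 1.5-fold lower, where 12.7% of all tested genes were. These were Kit (180.3 and 76.5 CPM), Cd34 (140 and 48.8 CPM), Mpo (5912 and 979 CPM) and Elane (3098 and 1702 CPM). Hoxa9 stood at 238 and 230.6 CPM and Meis1 at 71.6 and 87.4 CPM. The sum over the 9 was 10348 and 3811 CPM, or 4436 and 2832 CPM without Mpo. Summed over each list, B cell markers stood at 31.7 and 19.2 CPM, T and NK cell markers at 23.0 and 10.2 CPM, and stromal and endothelial markers at 26.9 and 9.32 CPM. In each of these lists 1 gene carried the lower sum, namely Cd79b (26.2 and 9.86 CPM), Nkg7 (22.05 and 7.45 CPM) and Pecam1 (25.1 and 6.76 CPM). Without that gene the sums were higher with brequinar, at 5.52 and 9.32 CPM for B cells, 0.930 and 2.73 CPM for T and NK cells, and 1.76 and 2.56 CPM for stroma. Vpreb1 (0.424 and 1.61 CPM), Igll1 (0.202 and 1.49 CPM), Cd4 (0.182 and 1.59 CPM) and Lepr (0.0808 and 0.667 CPM) were higher at these low levels. Of these, Igll1, Cd4 and Lepr fell under the filter on low values. In the same lists Pax5 was level (1.21 and 1.21 CPM). Cd3e (0.0808 and 0.0646 CPM), Cd8a (0.121 and 0.0861 CPM), Cxcl12 (1.21 and 0.775 CPM) and Cdh5 (0.141 and 0.108 CPM) had lower values. These genes also fell under the filter on low values. The counting intervals of Cd3e, Cd8a and Cdh5 span 1, so their direction is not settled. Megakaryocyte markers summed to 2.69 and 8.16 CPM. Whether these transcripts came from other cells or from the leukaemia cells was not tested. The part of any other cells in the ratios of the mitosis genes was not tested either.

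Counting of reads adds its own limits. The exons of 18 members overlap those of another annotated gene, 14 of them on the opposite strand, and the labels do not state whether the counting used strand. Transcript stretches of 5 members have near-identical copies elsewhere, namely Ccnb1, Mad2l1, Mki67, Ndc80 and Racgap1. The pseudogene Ccnb1-ps held 49 and 63 counts. Over the 32 members with neither, the median log2 ratio was 0.50, with 31 above 0 and 10 at least 1.5-fold higher.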

How the data were processed

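Counts of reads per gene were used as deposited. Per the labels' protocols, poly(A)-selected, strand-preserving libraries were sequenced as paired ends. Per the submitters' processing notes, STAR 2.4.2a and Picard 1.99 and 2.2.4 were used with build mm10. The counting program and its annotation: not given in the sources used here. Lines without a gene held 21.6% (vehicle) and 20.2% (brequinar) of reads and stayed out. Gene symbols and positions are those of GENCODE M21, mouse release 21 (GRCm38), and 44585 of 45318 identifiers had a symbol.

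Scaling of these counts used the TMM method of edgeR 4.0.16 in R 4.3.3, with factors 1.03 and 0.969 (vehicle, then brequinar). A single count was then worth 0.0202 and 0.0215 CPM, and a count of 0 allows up to 3 counts, or 0.0606 and 0.0646 CPM. The libraries held 19742 and 19322 detected genes, and genes with a mean under 1 CPM were left out. Log2 ratios used a prior count of 2. Other scalings, filters, prior counts and a correction for length and GC content were tried. Intervals are exact (Clopper-Pearson) at 95%, conditional on the summed count. TPM used principal transcripts. Look-alikes were sought with BLAST 2.17.0 (95% identity, 200 bases). The procedure was also run on simulated counts with Poisson error only. That run held no spread between mice or sorts and cannot show how well 1 library represents a treatment. Other software was Python 3.11.15, pandas 2.3.3, numpy 2.4.6, statsmodels 0.14.6, scipy 1.17.1, matplotlib 3.10.9 and DESeq2 1.42.0 (size factors).

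Members, lists and the 1.5-fold line were chosen with earlier results of these data known. Every member is named, with up to 3 genes of largest absolute log2 ratio from each further list and Cdkn1a, Mybl2, Wee1 and Ccne1. Depdc1a, Pkmyt1, Ncapd3, Ncaph2, Ncapg2 and the cell markers were named after their values were seen. Promoters printed follow a rule of ratio (at most 6), apart from Cdk1, Ube2c and Cdc20. A comparison of protein sequences was planned and not run.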

Additional observations from a re-analysis of the deposited data

How the results depend on the processing

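No paired analysis was possible because each treatment has 1 library, and for the same reason no replicate could be left out. The median log2 ratio of the 55 genes was 0.44 with total-count scaling, 0.49 with upper quartile scaling, 0.45 with totals without the 50 most abundant genes, 0.48 after the correction for length and GC content, 0.50 as a ratio of summed CPM, and 0.50 over the 32 members without overlap or look-alike, an alternative chosen after seeing the data. The number at least 1.5-fold higher was 15 with total counts, 15 without the 50 most abundant genes and 10 over those 32 members, of which 31 were above 0. Each other scaling moves all log2 ratios by nearly the same amount, at most 0.092.

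The median of the G1/S and replication genes was -0.0023 with total counts, 0.056 with upper quartile scaling, 0.010 without the 50 most abundant genes and 0.058 after the length and GC correction. Without a filter, 4538 genes were at least 1.5-fold higher, 4259 lower, 2470 at least 2-fold higher and 2074 lower, since more genes enter. With the filter set at 5 CPM, 871 genes were 1.5-fold lower or more, 457 at least 2-fold higher and 230 lower. Of 494 values of single members under alternatives, 359 lay within the counting interval and 135 outside it, and none that passed 1.5-fold turned its direction. Plk4 alone among the 55 changed sign, with total counts and with the length and GC correction. Depth limited Plk4 most, with 107 counts per library.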
